A study of Mus musculus with 15 samples.

Results

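Foxa2, Sox9 and Sox17 are 3 transcription factor genes tied to the formation and function of uterine glands. They were taken by gene symbol from every table that listed them, and they are 3 of the 28269 genes listed in any table. The series comprises 15 RNA-seq libraries of mouse uterine epithelium on day 4, with 3 libraries in each of 5 groups, and its title names overactivated Notch1 signalling as the subject. Luminal epithelium (LE) faces the cavity of the uterus, and the glands below it are made of glandular epithelium (GE). Wild-type (WT) mice gave an LE and a GE group, labelled Ctrl-LE and Ctrl-GE. Mice that overexpress Notch1 gave the other 3 groups: E-OEX-LE, E-OEX-GE and U-OEx-LE. The labels give no agent, age, strain, promoter or Cre line for any group. They do not spell out E-OEX or U-OEx, which are used here as names only, nor do they say whether libraries came from separate animals, so a p-value measures the spread between these libraries, which may be technical. Foxa2 and Sox9 were listed in all 15 libraries. Sox17 was listed in the 6 wild-type and 3 U-OEx libraries and was not analysed in E-OEX.

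Foxa2 is a forkhead pioneer factor that marks the glands of the adult mouse uterus and is needed for gland development and for the gland secretion of leukaemia inhibitory factor (Lif) around implantation. Sox9 is a SoxE factor found in many duct and gland progenitors, and it is expressed mainly in the glandular compartment of the uterus. Sox17 is a SoxF factor with roles in endothelium and endoderm, and in the uterus it acts in luminal and glandular epithelium, downstream of the progesterone receptor. Notch1 is a receptor that is cleaved on ligand binding. Its inner part joins the DNA-binding protein RBPJ and switches on repressors of the Hes and Hey families.

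In GRCm38, the build named in the submitters' processing notes, GENCODE M21 places Foxa2 (ENSMUSG00000037025) on the minus strand at chr2:148042877-148046969. Sox9 (ENSMUSG00000000567) lies on the plus strand at chr11:112782224-112787760. Sox17 (ENSMUSG00000025902) lies on the minus strand at chr1:4490931-4497354. All 3 are protein-coding, and each value below is for the whole gene. Foxa2 showed the largest differences between groups of the 3 genes, so the 250 bases before its outermost RefSeq start (GRCm38.p6, chr2:148046970-148047219, minus strand) are printed here 5′ to 3′:
Foxa2 promoter: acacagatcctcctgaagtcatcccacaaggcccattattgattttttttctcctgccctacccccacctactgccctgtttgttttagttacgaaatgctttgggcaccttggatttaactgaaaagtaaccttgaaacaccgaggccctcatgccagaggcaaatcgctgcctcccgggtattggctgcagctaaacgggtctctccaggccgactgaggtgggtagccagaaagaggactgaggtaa
Short core motifs of 4 factor families were searched on both strands of this window and of the windows before the other RefSeq starts of Foxa2, 3 windows in all. TGGGAA, the RBPJ core, was found in 21.6% of the 32851 windows of the same length in the promoter table. TGTTTAC, a forkhead core, was found in 3.17%, AACAAT, a Sox core, in 9.42% and CTTTGAT, a TCF/LEF core, in 3.21%. None of the 4 was found in the 3 Foxa2 windows, which says only that these letters are not there. Nothing is printed for Sox9 and Sox17, which had no entry in the table.

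Values are scaled read counts, that is, whole reads multiplied by 1 factor per library. The listed genes held 3818041 to 4797424 reads per wild-type library, 1980800 to 3494859 per E-OEX library and 13541644 to 14981505 per U-OEx library. The wild-type and E-OEX tables listed 6414 and 4903 genes, and with 1 marginal exception each gene differed at least 2-fold between its GE and LE means, so those sums are not sequencing depths. U-OEx listed 27946 genes, unselected. Notch1 itself was listed only in U-OEx LE (3075 ± 393, SD, n = 3), so the genotype could not be checked on it. Luminal markers were summed over the 6 genes listed in every table. The sums were 29903 to 134805 in the LE libraries and 822 to 8781 in the GE libraries. Single markers did not all follow the sum. In U-OEx against wild-type LE, 8 luminal markers were tested with limma (adjusted p threshold 0.05). Of these, 4 fell, 1 rose and 3 did not pass. Calb1 (log2 difference -7.03) and Lpar3 (-4.70) fell most, and neither passed against wild-type GE. Ltf, the 1 that rose (6.89), did not pass between GE and LE of wild type. Against wild-type GE, 5 of the 8 were higher in U-OEx LE and 3 did not pass. GE libraries also held far more of other cells. Summed in the same way, 9 stromal markers came to 34650 to 100543 in GE and 370 to 7754 in LE, and 6 smooth muscle markers to 2770 to 17818 in GE and 16.2 to 232 in LE. In bulk libraries of this kind, fewer cells of a type and less RNA per cell cannot be told apart.

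Foxa2 was close to the detection limit in wild-type lumen and abundant in glands. In wild-type LE the scaled counts were 14.5, 4.10 and 12.3, resting on 14, 4 and 11 reads, and in wild-type GE they were 2227, 2584 and 2282. E-OEX GE held 2260, 1941 and 2593, a range that overlaps that of wild-type GE on this deposited scale. The luminal libraries of both overexpressing groups sat between these extremes. E-OEX LE held 426, 41.8 and 52.9, and U-OEx LE held 677, 471 and 441. Every overexpressing LE library was above every wild-type LE library and below every GE library. By mean ± SD (n = 3), the order was wild-type GE (2364 ± 192), E-OEX GE (2265 ± 326), U-OEx LE (530 ± 129), E-OEX LE (174 ± 219) and wild-type LE (10.3 ± 5.48). Relative to its mean, E-OEX LE had the widest spread of the 5 groups (coefficient of variation 126%), and its replicate 1 stood far above the other 2 libraries.

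Sox9 ran in the same order with a shallower slope. The scaled counts were 72.5, 234 and 102 in wild-type LE and 2692, 2937 and 3297 in wild-type GE. They were 739, 351 and 73.4 in E-OEX LE, 3743, 2558 and 2537 in E-OEX GE, and 894, 504 and 536 in U-OEx LE. E-OEX LE overlapped both of its neighbours in this order, wild-type LE below and U-OEx LE above. Both GE groups overlapped too, at means of 2975 ± 304 in wild type and 2946 ± 690 in E-OEX (SD, n = 3 each). The means in LE were 136 ± 85.8 in wild type, 388 ± 335 in E-OEX and 645 ± 217 in U-OEx.

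Sox17 was the most abundant of the 3 genes and, unlike Foxa2 and Sox9, was higher in the LE than in the GE libraries of wild type. In wild-type LE it held 26181, 24389 and 27270, a mean of 25947 ± 1454 (SD, n = 3). Wild-type GE held 11501, 11903 and 10553 (mean 11319 ± 693). The U-OEx LE libraries held 2773, 3290 and 2687 (mean 2917 ± 326). The 3 groups did not overlap, and the lumen of U-OEx lay below both wild-type epithelia.

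**Figure D1:**
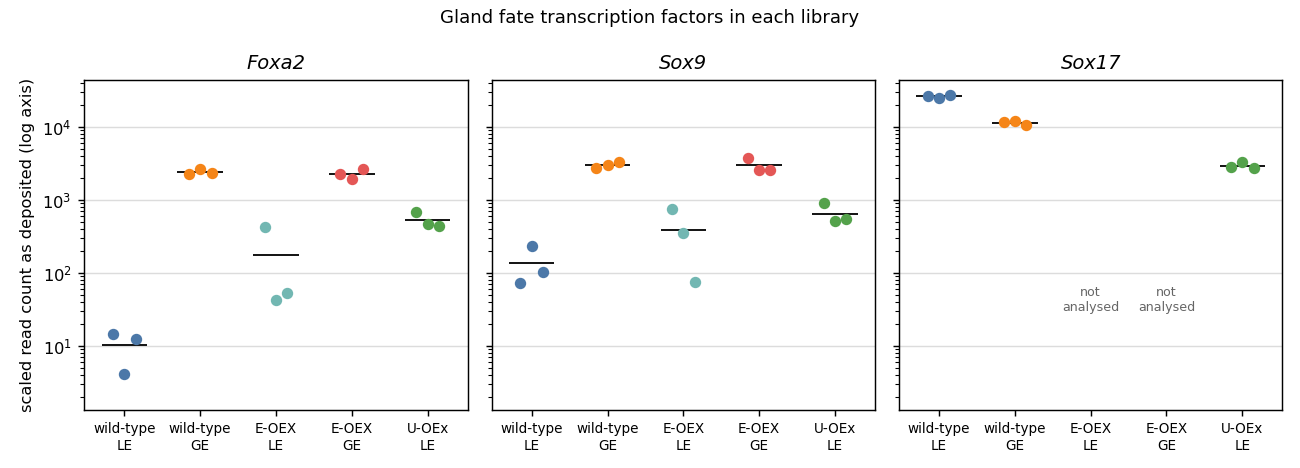
Scaled read counts of Foxa2, Sox9 and Sox17 in each library (points; log axis) and the mean of each group (black line), for 3 libraries in each group. Foxa2 runs from 4.10 to 14.5 in wild-type LE to between 1941 and 2593 in the GE groups, with the overexpressing LE libraries between them, while Sox17 is highest in wild-type LE and lowest in U-OEx LE.

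The deposited tables of wild type and of E-OEX were chosen on the difference between glands and lumen, so that difference is a description for the members. In wild type, Foxa2 was 7.86 (SE 0.44) higher in GE than in LE on the log2(value + 1) scale, a 232-fold difference, and Sox9 was 4.62 (SE 0.41) higher. Sox17 was 2.29-fold lower in GE (log2 difference -1.20, SE 0.13), or -0.56 after quantile normalization. The 5 general epithelial markers tested, such as Epcam and Cdh1, were all lower in GE too, with a median of -1.48 beside 1.36 for all genes. The part of other cells in the Sox17 difference was not tested. All 3 members passed the limma test at an adjusted p of 0.05, as did 97.0% of all genes listed there. In E-OEX the gap between GE and LE was 4.50 (SE 0.80) for Foxa2 and 3.43 (SE 0.75) for Sox9. Both passed, as did 91.6% of all listed genes.

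Whether Notch1 overexpression changed the gap between glands and lumen was tested as an interaction. The Foxa2 gap was narrower in E-OEX by 3.36 on the log2 scale (difference of differences -3.36, SE 1.0, limma adjusted p = 0.0477). Of the 2 members analysed, 1 passed, against 10.7% of the 2933 genes tested. The call is marginal. It was lost with a pseudocount of 0.1 (adjusted p = 0.0595) or 5 (0.0546), and when any 1 of 8 libraries was left out: wild-type LE replicate 2 or 3, any wild-type GE library or any E-OEX GE library. The largest of those adjusted p-values was 0.0995, and the fitted difference stayed between -4.14 and -2.31 over all 21 alternatives. For Sox9 the difference of differences was -1.19 (SE 0.94, limma adjusted p = 0.495), which became -2.11 (adjusted p = 0.0482) without E-OEX LE replicate 3, the library with the least Sox9 of its group.

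In luminal epithelium, E-OEX libraries held more Foxa2 than wild type in 3 of 3 libraries, but the difference did not pass the limma test. After reads of the shared genes were rescaled together with TMM, Foxa2 was 3.12 higher (log2, SE 0.92, adjusted p = 0.0594). None of the 2 members passed, and 1, Foxa2, had an unadjusted p under 0.05 (0.00702). Of all 2600 genes tested, 10.7% passed and 25.6% had an unadjusted p under 0.05. edgeR on the recovered reads gave a log2 difference of 3.76 (adjusted p = 0.0431) and DESeq2 gave 3.78 (adjusted p = 0.000725). Foxa2 also passed in limma with a replicate block (adjusted p = 0.0229) and in 1 fit over all 5 groups (adjusted p = 0.00295). The block matches libraries that share only a number, so its pass adds little. Over the alternatives the adjusted p ranged from 0.000725 to 0.189. The highest was reached without E-OEX LE replicate 1, when the difference fell to 2.13. Sox9 differed by 0.98 (SE 0.79, limma adjusted p = 0.462), and the groups overlapped. The difference was 0.32 without E-OEX LE replicate 1 and 2.06 (adjusted p = 0.0562) without replicate 3.

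Between the GE groups of E-OEX and wild type, Foxa2 differed by -0.53 (log2, SE 0.21, limma adjusted p = 0.0982) and Sox9 by -0.50 (SE 0.26, adjusted p = 0.211). Neither passed in limma, edgeR or DESeq2, and Foxa2 alone had an unadjusted limma p under 0.05 (0.0298). Of 2851 genes tested, 23.5% passed and 35.4% had an unadjusted p under 0.05. After rescaling, the 3 E-OEX GE libraries lay below the 3 wild-type GE libraries in Foxa2 and overlapped them in Sox9. The size depends on the scaling, since on the deposited scale the Foxa2 difference was -0.07 and that of Sox9 -0.03. Without E-OEX GE replicate 1, Sox9 was 0.75 lower in E-OEX (log2 difference -0.75, adjusted p = 0.0299). That library held the most Sox9 of its group, and its sum of the 6 luminal markers was 8781 against 2386 and 2072 in replicates 2 and 3. The part of these markers in the result was not tested.

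U-OEx luminal epithelium differed from wild-type lumen in all 3 members. Foxa2 was 50.5-fold higher (log2 difference 5.66, SE 0.51, limma adjusted p = 6.45e-05), a ratio that rests on 4 to 14 reads in the wild-type libraries. Sox9 was 5.08-fold higher (2.34, SE 0.44, adjusted p = 0.00234). Sox17 was 9.06-fold lower (-3.18, SE 0.19, adjusted p = 1.29e-05). In each case the 3 U-OEx libraries did not overlap the 3 wild-type libraries. In this comparison 56.9% of 5949 genes tested passed, so passing does not set the members apart. The share of all genes without overlap is not given, here or for the other comparisons. Whether a lack of overlap sets the members apart from other genes therefore cannot be judged. The 3 genes also ranked 267th (Foxa2), 1142nd (Sox17) and 1871st (Sox9) of 5949 by the size of the difference. All 3 passed under every alternative run, with Foxa2 between 5.12 and 6.03, Sox9 between 2.05 and 2.78 and Sox17 between -3.29 and -2.18.

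Between the overexpressing lumens, U-OEx held more Foxa2 than E-OEX in every library. The lowest U-OEx value, 441, lay just above the highest E-OEX value, 426. The difference of 2.26 (log2, SE 0.74) did not pass (limma adjusted p = 0.0726). It became 3.23 (adjusted p = 0.00330) without E-OEX LE replicate 1. Sox9 differed by 1.08 (SE 0.72, adjusted p = 0.333), and the groups overlapped. None of the 2 members passed in limma, edgeR or DESeq2, and Foxa2 alone had an unadjusted limma p under 0.05 (0.0139). Of 4275 genes tested, 15.0% passed and 33.2% had an unadjusted p under 0.05. Foxa2 did pass in limma with a replicate block, by number alone (adjusted p = 0.0360), and in 1 fit over all 5 groups (2.49, adjusted p = 0.0134). The E-OEX and U-OEx comparisons in lumen share the wild-type LE libraries and are given side by side only.

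**Figure D2:**
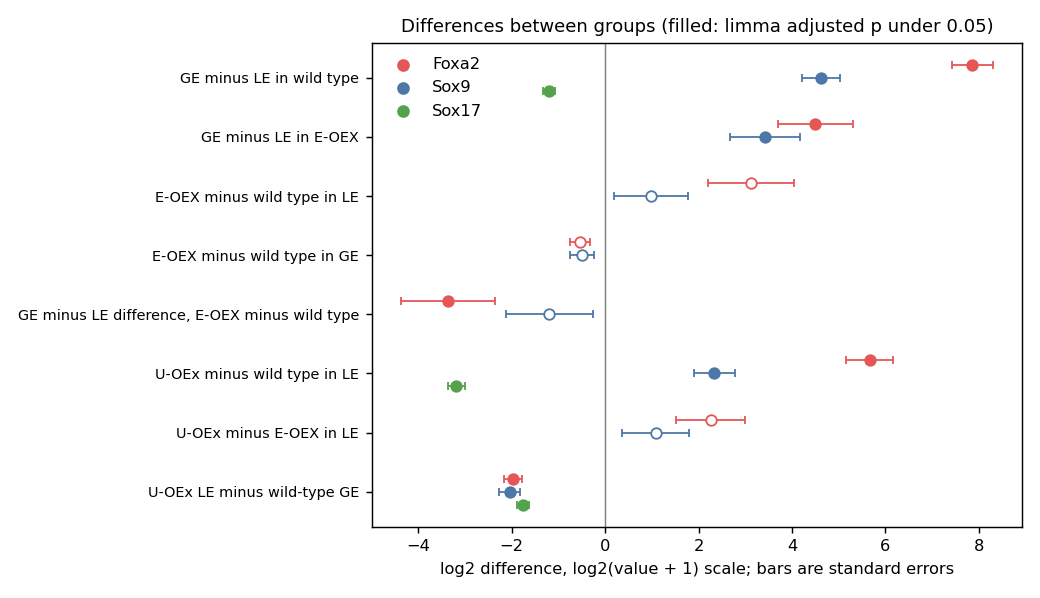
Log2 differences of the members (horizontal axis, log2(value + 1) scale) in the 8 comparisons, with standard errors as bars, for 3 libraries in each group; filled points have a limma adjusted p under 0.05. In U-OEx against wild-type LE, Foxa2 (5.66) and Sox9 (2.34) lie to the right of zero and Sox17 (-3.18) to the left, and against wild-type GE all 3 lie between -2.04 and -1.75.

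Set against wild-type glands, the lumen of U-OEx held less of all 3 factors by like amounts. Foxa2 was 3.92-fold lower (log2 difference -1.97, SE 0.19, limma adjusted p = 3.79e-05). Sox9 was 4.12-fold lower (-2.04, SE 0.23, adjusted p = 0.000106) and Sox17 3.37-fold lower (-1.75, SE 0.13, adjusted p = 9.64e-06). Of 6028 genes tested, 71.0% passed. Of 5 general epithelial markers, 3 were higher in U-OEx LE than in wild-type GE, 1 was lower and 1 did not pass. The part of other cells in these differences was not tested. In 1 fit over all 5 groups, the calls of Foxa2 (-1.51, adjusted p = 0.0551) and Sox9 (-1.58, adjusted p = 0.0588) were lost.

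The proportions of the 3 factors within a library do not depend on the scaling between libraries. They were compared per kb of exon, with 2370 exon bases for Foxa2, 4135 for Sox9 and 4772 for Sox17. The ratio of Sox9 to Foxa2 was 0.651 to 0.828 in wild-type GE, 0.561 to 0.949 in E-OEX GE and 0.613 to 0.757 in U-OEx LE. In wild-type LE it was 2.87 to 32.7, resting on only 14, 4 and 11 reads of Foxa2. Foxa2 was thus the higher of the pair in every gland library and every U-OEx lumen library, and Sox9 the higher in every wild-type lumen library. E-OEX LE was mixed, at 0.994, 4.82 and 0.795 in replicates 1 to 3.

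Sox17 dominated the wild-type lumen, where its level per kb was 897 to 2957 times that of Foxa2 and 90.5 to 313 times that of Sox9. With 4 to 14 reads of Foxa2 per library there, the size of the first ratio is imprecise. In wild-type GE the ratio of Sox17 to Foxa2 was 2.29 to 2.57, and in U-OEx LE it was 2.03 to 3.47. The ratio of Sox17 to Sox9 was 2.77 to 3.70 in wild-type GE and 2.69 to 5.66 in U-OEx LE. For all 3 ratios the range in U-OEx LE overlapped that of wild-type GE and lay outside that of wild-type LE. In the unselected U-OEx table, the level per kb of Foxa2 was above that of 84.6% to 89.6% of the listed genes, that of Sox9 above 77.9% to 86.2% and that of Sox17 above 95.6% to 96.9%.

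**Figure D3:**
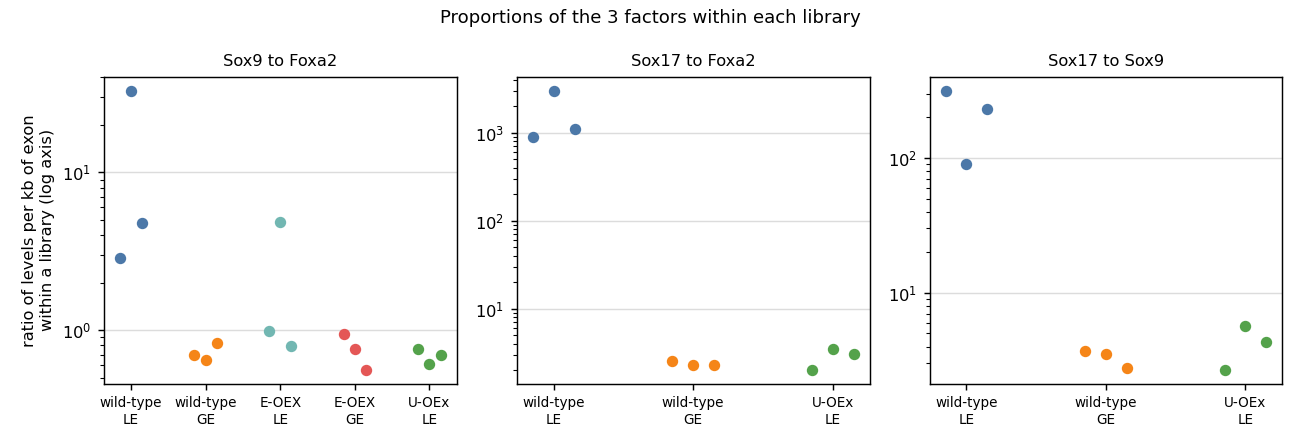
Ratios of levels per kb of exon between members within each library (points, log axis), for 3 libraries in each group in which both genes were analysed. The U-OEx LE points overlap those of wild-type GE in each panel (Sox17 to Foxa2: 2.03 to 3.47 against 2.29 to 2.57) and lie far from those of wild-type LE (897 to 2957). Ratios to Foxa2 in wild-type LE rest on 4 to 14 reads of Foxa2 per library.

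Beside Foxa2 lies 9030622O22Rik (ENSMUSG00000086141), a lincRNA on the same strand that starts 2674 bases downstream of the gene, at chr2:147944740-148040203. It was chosen for its position, being the only neighbour within 20 kb that was listed in all tables. In wild-type tissue it went with Foxa2, at 2.07, 1.02 and 4.47 in LE and 1850, 1671 and 1992 in GE. In the overexpressing lumens it did not. E-OEX LE held 3, 1 and 8 reads of it beside 467, 46 and 49 reads of Foxa2, and U-OEx LE held 1, 26 and 5 reads beside 737, 530 and 459. Its differences from wild-type LE were 0.20 in E-OEX (log2, SE 0.83, limma adjusted p = 0.900) and 0.97 in U-OEx (SE 0.92, adjusted p = 0.394).

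In E-OEX glands the pair also parted. 9030622O22Rik held 164, 585 and 870 there, each below every wild-type GE library (log2 difference -2.53, SE 0.47, limma adjusted p = 0.00431), while Foxa2 changed by -0.53 without passing. There were 1.15 to 1.55 reads of Foxa2 for each read of the lincRNA in wild-type GE and 2.98 to 13.8 in E-OEX GE. The highest of these, 13.8, was in replicate 1.

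**Figure D4:**
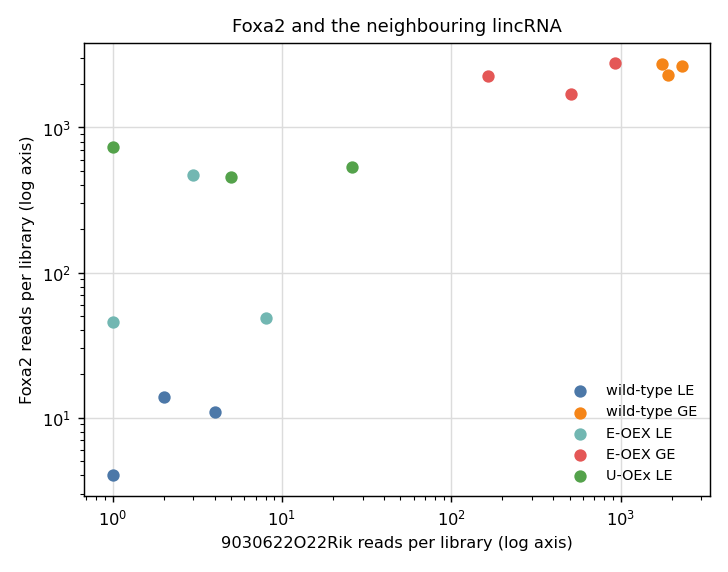
Reads of Foxa2 (vertical) and of the neighbouring lincRNA 9030622O22Rik (horizontal) in each of 15 libraries, both on log axes and not scaled between libraries. Wild-type GE points have 1.15 to 1.55 reads of Foxa2 for each read of the lincRNA, while the U-OEx LE points have 459 to 737 reads of Foxa2 and 1 to 26 of the lincRNA.

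Sox9 and Sox17 have neighbours that were listed only in U-OEx. BC006965, whose start lies 248 bases from Sox9 on the opposite strand, had 10, 7 and 1 reads. Gm37587, which overlaps exons of Sox17 on the opposite strand, held scaled counts of 13.8, 24.9 and 20.2, against 2773, 3290 and 2687 for Sox17. The use of strand in the counting is not given in the sources used here, so reads of this pair cannot be told apart.

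Glands are recognised by what they secrete, and the products were set beside the factors. The list of 18 gland products and markers holds Lif, the cytokine needed for implantation, Cxcl15, a gland chemokine, the protease inhibitor Spink1, the gland proteases Prss28 and Prss29, transthyretin (Ttr) and calcitonin (Calca). Among its genes, 3 were lower in GE than in LE of wild type and are not gland-enriched in these data: Prap1 (-5.70), Fxyd4 (-6.09) and Slc39a2 (-3.33). In U-OEx against wild-type lumen, 14 were tested: 5 rose, 4 fell and 5 did not pass, where 56.9% of all genes passed, with a median log2 difference of -0.51 beside 0.09 for all genes tested. Lif rose from 38.8 ± 16.6 to 591 ± 210 (log2 difference 3.91, SE 0.41, limma adjusted p = 0.000129). Cxcl15 rose from 7.36 ± 1.87 to 122 ± 46.6 (3.80, SE 0.49, adjusted p = 0.000347; SD, n = 3 each). Sult1d1, a sulfotransferase, fell by 8.49 (adjusted p = 1.43e-05), from 5064 ± 2084 to values of 7.35, 25.8 and 9.60.

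Other gland products were at or near 0 reads in the same U-OEx libraries. Spink1, at 10548 ± 2255 in wild-type GE, had 0 reads in all 3 U-OEx LE libraries, which allows up to 3 reads in each. Prss29 (12151 ± 5475 in wild-type GE) and Ttr (1351 ± 170) also had 0 reads in all 3, and Calca had at most 2. Set against wild-type GE, 10 of the 15 products tested were lower in U-OEx LE, 4 were higher and 1 did not pass, where 71.0% of all genes passed. Their median was -3.25 beside -0.12 for all genes. The 4 that were higher were Lgr5 and the 3 luminal genes of the list. Foxa2, Sox9, Lif and Cxcl15 thus stood well above their wild-type luminal level in libraries without a read of Spink1, Prss29 or Ttr.

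In the E-OEX lumen the factors and products varied from library to library. As a percentage of the E-OEX GE mean, Foxa2 was 18.8, 1.84 and 2.34 in replicates 1 to 3, and Sox9 was 25.1, 11.9 and 2.49. Lif was 61.9, 17.6 and 4.38 and Cxcl15 was 3.82, 0.662 and 1.11, of a gland mean that was itself lower than in wild type for both (log2 differences -3.46 and -1.88). Spink1 and Calca had 0 reads in all 3 libraries and 9030622O22Rik was at most 1.60. Replicate 1 was thus the highest for both factors and for Lif and Cxcl15. Wfdc3 (14.1, 0.697 and 8.14) and Aldh1a2 (9.98, 3.82 and 6.81) were also highest there. Sult1d1 (8.07, 3.97 and 26.3) and Foxj1 (36.0, 49.0 and 49.3) were highest in replicate 3 instead, as was Ttr on 3 reads. Of the 11 products tested against wild-type LE, 2 rose, 1 fell and 8 did not pass, where 10.7% of all genes passed. Their median was 0.60 beside -0.09 for all genes. Lif and Cxcl15 did not pass there (adjusted p = 0.227 and 0.280 in limma), and the 2 that rose were the luminal Prap1 (4.09, adjusted p = 0.00430) and the gland-enriched Wfdc3 (3.78, adjusted p = 0.0394).

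In the glands of E-OEX most products passed the test against wild-type GE and the 2 factors did not. Of 11 products tested, 6 fell, 2 rose and 3 did not pass, where 23.5% of all genes passed. Their median was -1.48 beside 0.05 for all genes. Foxa2 (-0.53) and Sox9 (-0.50) were also lower without passing, and factors were not tested against products. The 2 products that rose, Prap1 and Fxyd4, are luminal in wild type. Spink1 fell by 7.55 (SE 0.95, limma adjusted p = 0.000492) and held 9.01, 275 and 161 in E-OEX GE. Ttr (-6.34, SE 0.45, adjusted p = 3.11e-05), Calca (-3.94, SE 1.04, adjusted p = 0.0226) and Lif (-3.46, SE 0.34, adjusted p = 0.000144) fell too. Lif is not among the 3 largest decreases and is named because it stands beside the members above. E-OEX GE replicate 1, with the highest luminal marker sum, held the lowest Spink1, Calca and Lif of its group. Smooth muscle markers were also higher in these libraries, with 5 of 6 tested above wild-type GE, where 23.5% of all genes passed. Their part in the decreases was not tested.

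**Figure D5:**
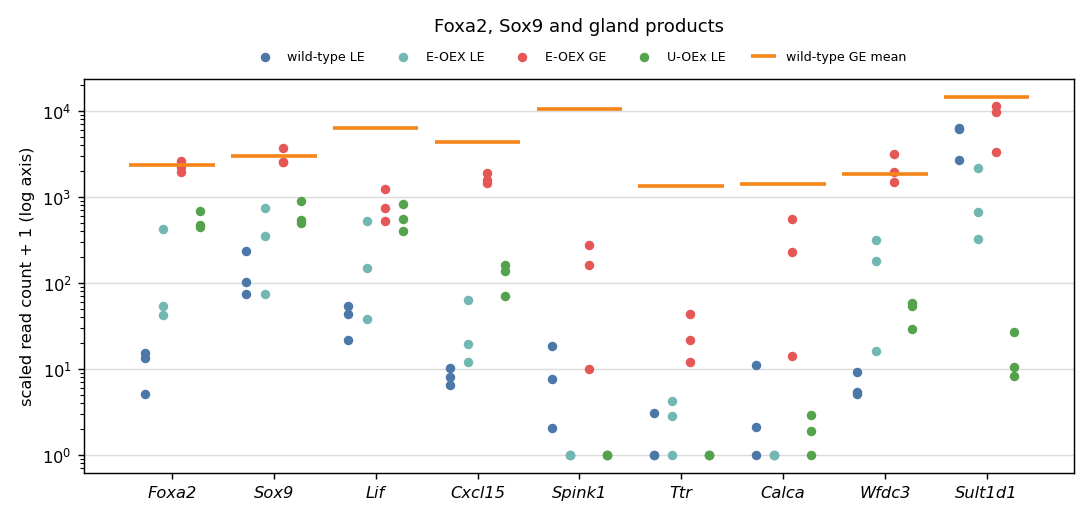
Scaled read count + 1 (log axis) of Foxa2, Sox9 and 7 gland products chosen after their values were seen, in each library of 4 groups (points), with the mean of wild-type GE as an orange line; the tables of wild type, E-OEX and U-OEx are shown on their deposited scales. Foxa2, Sox9, Lif and Cxcl15 are above wild-type LE in U-OEx LE, where Spink1 and Ttr have 0 reads and lie at 1.

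Across libraries, the gene most like Foxa2 was another transcription factor of secretory epithelium, Spdef. Likeness was the Pearson correlation of log2 values over the 15 libraries among 2474 genes, which share the same libraries and scaling and include groups far apart, so it is a description. Spdef had r = 0.985, followed by Cecr2 (0.982), the guidance cue Ntn1 (0.972), Sidt1 (0.954) and Hid1 (0.950). Spdef had 1, 0 and 0 reads in wild-type LE, against 366 ± 39.8 (scaled) in wild-type GE. It held 31.0, 5.45 and 7.56 in E-OEX LE and 150, 49.8 and 109 in U-OEx LE (SD, n = 3). Against wild-type LE it passed the limma test in both E-OEX (adjusted p = 0.0367) and U-OEx (adjusted p = 9.85e-05), and no fold is given because wild-type LE is at the detection limit.

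Sox9 was the gene ranked 43rd by likeness to Foxa2 (r = 0.874, 15 libraries). Among the genes most like Sox9 were Ppic (r = 0.970), the thrombin receptor F2r (0.957), Nlrp6 (0.949) and Mark1 (0.948). Over its 9 libraries and 5265 genes, Sox17 was most like Tmod2 (r = 0.996), then Fgfr2, Jam2, Ggt6 and Ankrd29 (0.995 each), and it ran opposite to Foxa2 (r = -0.812). Fgfr2, a receptor for fibroblast growth factors, had means of 12647, 2724 and 449 in wild-type LE, wild-type GE and U-OEx LE. Tmod2, an actin filament capping protein, had 3707, 292 and 23.6. In both, as in Sox17, wild-type LE was highest and U-OEx LE lowest.

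Close relatives of the 3 factors did not all move with them. Of 6 other Foxa, SoxE and SoxF genes, 3 were tested in U-OEx against wild-type LE. Of these, 1 rose and 2 did not pass, where 56.9% of all genes passed. Sox7, a SoxF relative of Sox17, held 804, 2615 and 1528 in wild-type LE and 1410, 1488 and 1541 in U-OEx LE (log2 difference -0.02, SE 0.36, limma adjusted p = 0.965), where Sox17 was 9.06-fold lower. Sox18, the other SoxF gene, was at most 21 reads in any LE library and 312 ± 74.7 in wild-type GE. Foxa3, a relative of Foxa2, was at 0 reads in each wild-type lumen library and had at most 4 in U-OEx LE, so its call (adjusted p = 0.00467) rests on very few reads. Foxa1 was analysed in U-OEx alone, at 322 ± 37.9 (SD, n = 3).

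Sox17 also marks endothelium, and endothelial markers were therefore set beside it. The SoxF gene Sox7 carries most of the luminal sum of the 11 markers and was left out here after its values were seen. The other 10 summed to 237 to 361 in wild-type LE, 3368 to 5722 in wild-type GE and 510 to 671 in U-OEx LE, with Emcn at the detection limit in U-OEx LE. With Sox7 the sums were 1041 to 2975, 3758 to 6173 and 1998 to 2212. Pecam1 held 25.2 ± 9.27 and Cdh5 36.0 ± 19.6 in wild-type LE (SD, n = 3), where Sox17 was highest. In U-OEx LE, 3 of the 11 were higher than in wild-type LE and 8 did not pass, where 56.9% of all genes passed. The log2 differences of those 8 ran from -1.14 (Cdh5) to 0.30 (Kdr). The part of endothelial RNA in the Sox17 values was not tested.

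Stromal markers were set beside Sox9 in the same way, as sums over 9 genes. In wild-type LE they were 370, 7754 and 2476 in replicates 1 to 3, and the highest went with the highest Sox9, 234. In E-OEX LE they were 2012, 824 and 397, in the same order as Sox9 at 739, 351 and 73.4. The orders differed in U-OEx LE, at 904, 550 and 1741 beside 894, 504 and 536. They also differed in the glands, at 50803, 100543 and 34650 beside 2692, 2937 and 3297 in wild type and 76959, 91391 and 85174 beside 3743, 2558 and 2537 in E-OEX. None of the 9 stromal markers tested was higher in U-OEx than in wild-type LE and 2 were lower, where 56.9% of all genes passed. Hoxa11 and Twist2 were at the detection limit in U-OEx LE. The part of stromal RNA in the Sox9 values was not tested. Of 5 immune markers tested, 4 were higher in U-OEx than in wild-type LE, beside the same 56.9% of all genes passing. The sums over these 5 were 3309 to 5943 against 807 to 1514.

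Some Notch target genes were raised in the overexpressing lumens. Hey1, a Notch-induced repressor, rose by 3.83 in E-OEX LE (limma adjusted p = 0.00646) and by 3.65 in U-OEx LE (adjusted p = 0.000599), from 99.9 ± 66.2 to 1358 ± 410 and 1063 ± 218 (SD, n = 3). Heyl rose by 4.37 (adjusted p = 0.00646) and 5.45 (adjusted p = 0.000506). In E-OEX LE 2 of 9 Notch genes tested rose and none fell, where 10.7% of all genes passed. Their median was 0.12 beside -0.09 for all genes. In U-OEx LE 8 of 15 rose and 5 fell, where 56.9% of all genes passed, with a median of 1.36 beside 0.09. The Hey1 values of the overexpressing lumens overlapped, at 1104 to 1832 in E-OEX and 889 to 1308 in U-OEx, where Foxa2 was 41.8 to 426 and 441 to 677. Hey2 fell in U-OEx LE (-3.63, adjusted p = 0.000167), at 17.5 ± 1.83 against 232 ± 73.4 in wild type.

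Wnt signalling is known for its role in gland formation. In U-OEx LE, 10 of 22 Wnt genes tested rose and 6 fell against wild type, where 56.9% of all genes passed. Their median was 1.36 beside 0.09 for all genes. The largest decreases were in Lrp2 (-10.88, limma adjusted p = 9.06e-06), Wnt11 (-7.09, adjusted p = 3.98e-05) and Fzd5 (-3.73, adjusted p = 2.09e-05). Among those that rose were 2 transcription factors of the pathway, Sp5 (7.93, limma adjusted p = 4.47e-05) and Lef1 (4.77, adjusted p = 0.00103), and the secreted modulator Dkk2 (5.28, adjusted p = 9.35e-05). Lef1 was 178 ± 43.4 in U-OEx LE, 9.47 ± 8.14 in E-OEX LE and 8.24 ± 9.06 in wild-type LE (SD, n = 3). It was the 1 gene of 10 tested that was higher in U-OEx than in E-OEX LE (4.45, adjusted p = 0.0106), where 15.0% of all genes passed. In E-OEX LE 7 Wnt genes were tested against wild type, where 10.7% of all genes passed. Wnt4 rose by 2.99 (adjusted p = 0.0196), the receptor Fzd5 fell by 3.41 (adjusted p = 0.00157) and 5 did not pass. In the glands of E-OEX both Wnt4 (-2.66, adjusted p = 0.00120) and Fzd5 (-1.0, adjusted p = 0.0161) fell. The other 5 of 7 tested in the glands did not pass, where 23.5% of all genes passed.

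The progesterone receptor gene Pgr and its partner Gata2 fell together with Sox17 in U-OEx LE. Pgr was 3164 ± 1442 in wild-type LE and 771 ± 71.6 in U-OEx LE (log2 difference -1.96, SE 0.37, limma adjusted p = 0.00267). Gata2 was 12736 ± 6984 and 2113 ± 152 (-2.46, SE 0.42, adjusted p = 0.00155; SD, n = 3 each). Among 12 genes of the progesterone and Ihh list tested there, the median was -0.62 beside 0.09 for all genes. The list passed less often than all genes, of which 56.9% passed: 8 did not pass, 1 rose and 3 fell. The third that fell was Gli1, a hedgehog target (-4.72, adjusted p = 0.00633), and the gene that rose was Msx2 (3.98, adjusted p = 0.000845), an epithelial homeobox factor. Ihh, a progesterone-induced epithelial signal, was listed only in U-OEx LE, at 0.919, 6.22 and 5.76.

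Of the other epithelial fate factors, 11 were tested in U-OEx against wild-type LE: 2 rose, 4 fell and 5 did not pass, a share near the 56.9% of all genes, with a median of -0.80 beside 0.09. Elf3 rose by 1.33 (limma adjusted p = 0.000501) beside Spdef. Hoxa10, a factor for uterine identity that is strongest in stroma, fell by 3.54 (adjusted p = 0.00376), and Ovol1, an epithelial repressor, by 0.80 (adjusted p = 0.0266). Hoxa11 also fell (adjusted p = 0.00663), to the detection limit.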

How the data were processed

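The authors' deposited tables hold a scaled read count for each gene and library, treated here as a signal; per the labels' protocols, total RNA was made into libraries with the NEBNext Ultra kit. The aligner, counter and scaling method are not given in the sources used here, and GRCm38 and mm10 are named in the submitters' processing notes. In every library 100% of values were whole multiples of 1 step within 0.01 of a read, so whole reads were recovered; of the members, Foxa2 in wild-type LE has the fewest reads and so the least precision.

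Tests used limma 3.58.1 (R 4.3.3; trend) on log2(value + 1), for genes whose mean was 1 or more, Benjamini-Hochberg adjusted over all genes tested, with a threshold of 0.05. GE against LE and the interaction used deposited values. The other comparisons between genotypes used recovered reads of shared genes, rescaled with TMM, which assumes that most genes do not change. Alternatives used edgeR 4.0.16 and DESeq2 1.42.0 on recovered reads, other pseudocounts (0.1, 5), filters (none, or a mean of 10) and scalings, 1 fit over all groups, a replicate block and each library left out. The limma script was tested on simulated data. No library repeated another (chi-square per degree of freedom 16.6 or more between replicates).

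Named list genes are the 3 with the largest passing differences per list and direction, and the 5 genes most like each member (mean of at least 10), of which 1 is not reported here. The members and lists were chosen with earlier results of these data known. Gene symbols come from GENCODE M21; promoter windows come from RefSeq (GRCm38.p6). A group with 3 reads or fewer in every library is called at the detection limit.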

Additional observations from a re-analysis of the deposited data

Results flagged for a closer look

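The difference between GE and LE differed between E-OEX and wild type for Foxa2 by the interaction test (-3.36, limma adjusted p = 0.0477), with 3 libraries in each of 4 groups. In the lists, the interaction also passed for Fxyd4 (4.97), Ttr (-6.54), Lif (-4.93), Cxcl15 (-2.99), Fzd5 (2.70), Wnt4 (-5.36), Hey2 (3.30), Dll4 (2.58), Heyl (-3.02), Hoxa10 (4.23) and Spdef (-3.69), with adjusted p-values of 0.00152 to 0.0210. A negative value means that GE minus LE was lower in E-OEX, and the sign alone does not tell a narrower from a wider gap. From wild type to E-OEX, GE minus LE changed direction for Wnt4 (2.95 to -2.40) and Fzd5 (-1.45 to 1.25). It also did for Hey2 (-1.60 to 1.70) and Dll4 (-1.28 to 1.30). The gap of Fxyd4 was narrower in E-OEX (-6.09 to -1.12) and that of Hoxa10 wider (3.73 to 7.97). The values of Ttr and Spdef rest on LE groups at or near the detection limit and bound nothing.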

How the results depend on the processing

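Of 309 alternative values of the members, none changed direction and 288 stayed on the same side of the threshold. Foxa2 in E-OEX against wild-type LE passed with a replicate block (3.12, adjusted p = 0.0229), with edgeR (3.76), with DESeq2 (3.78) and in 1 fit over all 5 groups (3.19). Foxa2 in U-OEx against E-OEX LE passed with the replicate block (2.26, adjusted p = 0.0360) and in the 5-group fit (2.49), and ranged from 1.69 to 3.23 with single libraries left out. The Foxa2 interaction did not pass with a pseudocount of 0.1 (-3.50) or 5 (-2.93) and ranged from -3.97 to -2.31 with libraries left out, and the Sox9 interaction from -2.11 to -0.45. Sox9 in E-OEX against wild-type GE ranged from -0.75 to -0.33. In U-OEx LE against wild-type GE the 5-group fit gave -1.51 (Foxa2) and -1.58 (Sox9), short of the threshold. The replicate block changed no other member's call. Same-numbered libraries correlated by -0.284 to 0.188 over 21 pairs, 4 of them above 0.1, and in 0 of 7 pairs of groups for all 3 numbers, so the libraries share only a number. In 0 of 7 did every library correlate best with its own number.

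The number of genes passing moved by over 1.5 times in the 5-group fit, which tests 2819 genes: 2486 (GE against LE, wild type; 6223 in the reported fit), 2264 (GE against LE, E-OEX; 4491), 616 (E-OEX against wild-type LE; 277), 285 (E-OEX against wild-type GE; 670), 1274 (U-OEx against wild-type LE; 3384) and 1995 (U-OEx LE against wild-type GE; 4278). Without a filter it was 105 (E-OEX against wild-type LE) and 286 (U-OEx against E-OEX LE; 642), and DESeq2 gave 453 for E-OEX against wild-type LE. With single libraries left out it ranged from 56 to 322 in E-OEX against wild-type LE (lowest without Ctrl-LE replicate 3), from 362 to 728 in E-OEX against wild-type GE, from 179 to 449 for the interaction (315) and from 60 to 904 in U-OEx against E-OEX LE. On the deposited scale the share of higher genes among those passing was 71.6% rather than 41.3% in E-OEX against wild-type GE, where the median of all genes moved from 0.05 to 0.50, and 58.6% rather than 48.0% in LE. Quantile normalization gave 46.2% rather than 67.2% for GE against LE in E-OEX and 42.9% rather than 54.3% for the interaction. The cause was not tested.

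Depth limits Foxa2 and 9030622O22Rik in wild-type LE, at 4 to 14 and 1 to 4 reads per library, and gland genes such as Spdef with fewer still. Sox17 was not analysed in E-OEX, so nothing is known here of its level in those groups. The wild-type and E-OEX lists hold only genes that differ between GE and LE, and scaling over all genes was not tested.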
